A study of Homo sapiens with 9 samples.

Results

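Chromosome 1 carried 18089 of the 148797 regions in which open chromatin was counted, 6854 on the short arm (1p) and 11235 on the long arm (1q). A region belonged to an arm by whether its midpoint lay before or after 123 Mb of GRCh38, and no measured value entered that choice. Arms were cut into 10-Mb bins, which gave 13 bins on 1p and 12 on 1q. The assay was ATAC-seq: the transposase Tn5 cuts genomic DNA that is not covered by nucleosomes or other proteins and leaves sequencing adapters there, so that open stretches give more reads. The cells were SK-N-BE(2)c, an established human neuroblastoma line. With Lipofectamine 2000 as carrier, all 3 groups had received an antisense oligonucleotide (ASO) at 100 nM, and the cells were taken after 48 h. In 2 groups the ASO, named ASO2 or ASO10, targets the lncRNA NESPR, and the remaining group received NCA, the negative control. No untransfected cells were analysed here, so every group shares the transfection. Each group had 3 libraries. Nothing in the labels says that they came from separate cultures, so p-values measure the spread between these libraries, which may be technical.

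Loss of the distal short arm of chromosome 1 is a recurrent lesion of neuroblastoma and goes with high-risk disease, and several genes there have been proposed as tumour suppressors. The long arm is more often gained than lost in cancers and holds genes of the cell cycle and of survival. The number of copies of a stretch of DNA and the openness of each copy both enter an ATAC-seq count, and the counts alone cannot tell them apart. DNA copy number of these cells was not measured in the files used here.

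Total counts ranged from 7293565 to 10948569 per library. Levels in CPM, the count of a region scaled to a common library size, use these totals times their TMM factors, which lay between 0.974 and 1.021. Of 10 genes that mark adrenergic neuroblastoma cells, 9 had a region within 1 kb of a gene end, 5 of them at the gene's own annotated start site. TH, the rate-limiting enzyme of catecholamine synthesis, had no such region. Of 10 markers of blood, epithelium, muscle and liver, 4 had such a region (PTPRC, SPI1, KRT8 and APOA1), in no case at the gene's own annotated start site.

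Among the chromosome 1 genes of the lists described below, 4 had a called difference at a region within 1 kb of a gene end: UBE4B, DNAJB4, UBE2T and NEGR1. Over all tested regions 5.6% were called under ASO2, 1.09% under ASO10 and 3.23% between the ASOs. The 250 bases before the annotated start site of UBE4B, DNAJB4 and UBE2T are shown because the called regions cover them. They are printed 5′ to 3′ on the gene's own strand from RefSeq (GRCh38.p14). UBE4B, a ubiquitin chain assembly factor at the distal end of 1p, is shown for chr1:10032708-10032957 on the + strand. DNAJB4, an HSP40 co-chaperone of 1p, is shown for chr1:77978925-77979174 on the + strand. UBE2T, the ubiquitin-conjugating enzyme of the Fanconi anaemia pathway on 1q, is shown for chr1:202341937-202342186 on the - strand. Capitals mark matches on either strand to core letters of the CCAAT box (CCAAT), the GC box (GGGCGG), the E-box of MYC family factors (CACGTG) or the heat shock element (GAANNTTC).
UBE4B: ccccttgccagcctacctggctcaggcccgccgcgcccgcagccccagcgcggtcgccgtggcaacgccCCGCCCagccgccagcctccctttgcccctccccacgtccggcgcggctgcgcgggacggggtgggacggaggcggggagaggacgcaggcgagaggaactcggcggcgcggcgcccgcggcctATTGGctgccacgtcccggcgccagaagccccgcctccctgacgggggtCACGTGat
DNAJB4: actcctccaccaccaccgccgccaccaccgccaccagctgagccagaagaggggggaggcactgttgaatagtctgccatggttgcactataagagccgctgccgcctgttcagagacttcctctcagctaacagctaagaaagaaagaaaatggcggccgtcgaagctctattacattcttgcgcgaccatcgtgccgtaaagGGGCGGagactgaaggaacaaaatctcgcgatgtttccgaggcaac
UBE2T: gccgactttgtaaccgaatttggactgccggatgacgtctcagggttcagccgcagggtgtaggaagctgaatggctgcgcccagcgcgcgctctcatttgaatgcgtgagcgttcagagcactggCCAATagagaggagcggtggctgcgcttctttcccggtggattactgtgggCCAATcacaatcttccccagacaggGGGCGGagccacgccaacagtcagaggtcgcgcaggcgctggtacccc

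The UBE4B window held 1 match each to the CCAAT box, the GC box and the E-box, the last of them starting 8 bases before the start site. DNAJB4 had a single match, to the GC box, and UBE2T had 2 matches to the CCAAT box and 1 to the GC box. No window matched the heat shock element, and the matches did not overlap. Of 35116 promoter windows of this length, 32.0% held the CCAAT box, 42.6% the GC box, 6.34% the E-box and 5.78% the heat shock element, so the E-box of UBE4B was the least common of the matches. A match is a description of letters, not a site in use. UBE4B was the most GC-rich of the 3 windows at 78%, against 60.8% for UBE2T and 55.6% for DNAJB4.

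The arms differed in how densely they were covered. Chromosome arm 1p held 55.7 regions per Mb and 1q held 89.2, while 22 other main chromosomes, Y left out, ranged from 12.9 on X to 87.6 on chromosome 20. Within 1p the bins ran from 28.9 regions per Mb at 70 to 80 Mb and 32.5 at 80 to 90 Mb up to 94.2 at 110 to 120 Mb and 127.7 at 120 to 123 Mb. Within 1q the lowest bins were 140 to 150 Mb with 63.9 and 190 to 200 Mb with 89.8, and the highest were the last bin, from 240 Mb, with 109.7 and 230 to 240 Mb with 108.1. Gene number did not follow the same order: 1p had 7.43 protein-coding genes with an annotated start per Mb and 1q had 6.61. A single set of regions served all 9 libraries, so the number of regions has no replicate error and was not tested.

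**Figure D1:**
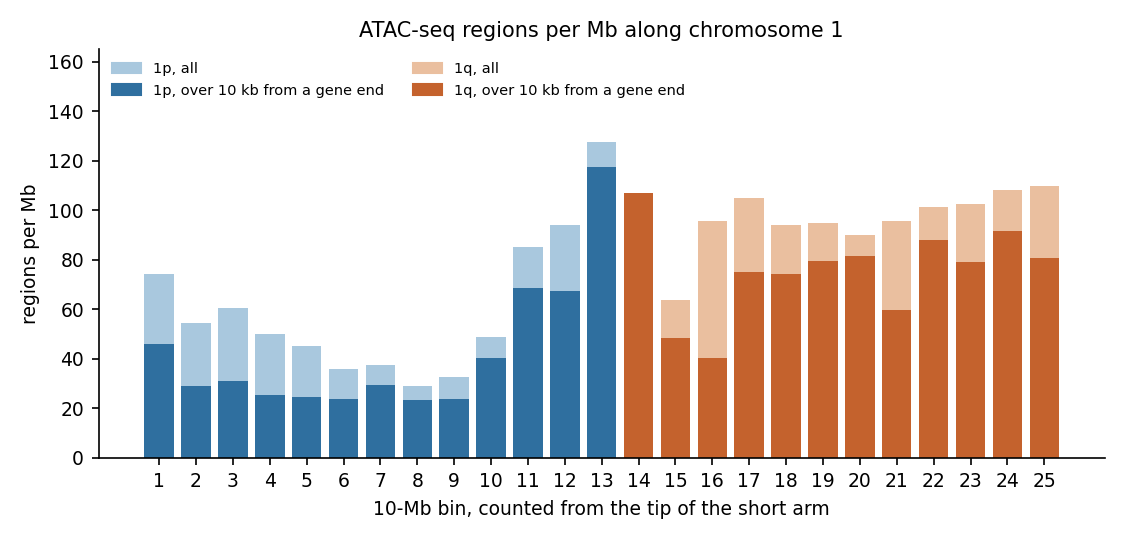
Number of regions per Mb in each 10-Mb bin of chromosome 1, all regions in light colour and those more than 10 kb from either end of a protein-coding gene in dark colour, with 1p in blue and 1q in orange. Bins are numbered from the tip of 1p, bins 13 and 14 meet at the arm boundary, and the bars of bins 11 to 25, from 63.9 to 127.7, stand above those of bins 2 to 10, from 28.9 to 60.4. Bin 1, at 74.4, lies within the range of bins 11 to 25. Bins 14 and 15 each include part of an 18-Mb stretch without regions, which lowers their bars.

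The step in density lay inside 1p and not at its boundary with 1q. In windows of 1 Mb, the 2 windows from 95 to 97 Mb held 43 and 44 regions, and the next 3 windows held 79, 73 and 91. From 17 to 97 Mb the median 1-Mb window had 42 regions, and from 97 to 120 Mb it had 88, close to the 100 of the windows from 150 to 248 Mb. The tip before 17 Mb, part of the distal 1p defined below, was denser, with a median of 69 and a highest of 108. The lowest window from 97 to 120 Mb had 70 regions, above the 90th percentile of 63.1 for the windows from 17 to 97 Mb. The windows from 104 to 107 Mb contained no annotated protein-coding start and still held 87, 70 and 80 regions, all of them more than 10 kb from a gene end. Far from genes the step was larger than overall: regions more than 10 kb from a gene end numbered 28.4 per Mb before 97 Mb, 68.3 from 97 to 121 Mb and 74.4 from 144 to 249 Mb. The positions 97, 121 and 144 Mb were picked after these values had been seen, and they define what is called distal 1p (4433 regions), proximal 1p (2130 regions), the stretch around the centromere (1127 regions) and the 1q stretch (10399 regions).

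The level of the typical region hardly followed this step. Across arms, the median region of 1p had 48.2 ± 3.74 counts per kilobase in the NCA libraries and that of 1q had 50.8 ± 3.40 (SD, n = 3). The ratio of 1p to 1q was 0.943, 0.937 and 0.966 in the 3 libraries, a mean of 0.949 ± 0.0153 (SD, n = 3). By bin, 1p ran from 41.2 at 100 to 110 Mb and 41.3 at 70 to 80 Mb to 56.4 at 0 to 10 Mb and 85.4 at 120 to 123 Mb. On 1q the range was from 36.6 at 190 to 200 Mb and 42.4 at 210 to 220 Mb to 58.4 at 200 to 210 Mb and 131.4 at 123 to 130 Mb. In distal and proximal 1p and the 1q stretch the medians were 48.8 ± 3.84, 43.8 ± 3.42 and 47.8 ± 3.22 counts per kilobase. The medians cover the regions of the table only; DNA between them has no count here.

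Regions at gene starts differed more in level along the chromosome. Within 1 kb of a protein-coding start, the median NCA level was 13.1 ± 0.173 CPM in distal 1p (530 regions), 20.2 ± 0.521 in proximal 1p (100 regions) and 24.5 ± 0.896 in the 1q stretch (534 regions; SD, n = 3 libraries). Per kilobase of region the same medians were 11.5 ± 0.208, 16.7 ± 0.698 and 19.6 ± 0.750 CPM. All 9 libraries had the same order, with proximal 1p 1.43 to 1.57 times and the 1q stretch 1.73 to 1.90 times the level of distal 1p. From the 25th to the 75th percentile, regions ran from 7.33 to 20.7 CPM in distal 1p and from 11.5 to 38.3 CPM in the 1q stretch, so the distributions overlapped. A similar share of genes had a region within 1 kb of the start: 75.5% in distal 1p, 76.9% in proximal 1p and 70.8% in the 1q stretch. Median GC content of the promoters fell along the same order and was 65.0%, 60.7% and 58.7%; its part in the levels was not tested. On the other chromosomes with this measure, 21 in number, the median start-site level lay between 10.5 CPM on chromosome 22 and 21.8 CPM on chromosome 14. Since regions of 1 library are not replicates, these levels are a description.

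**Figure D2:**
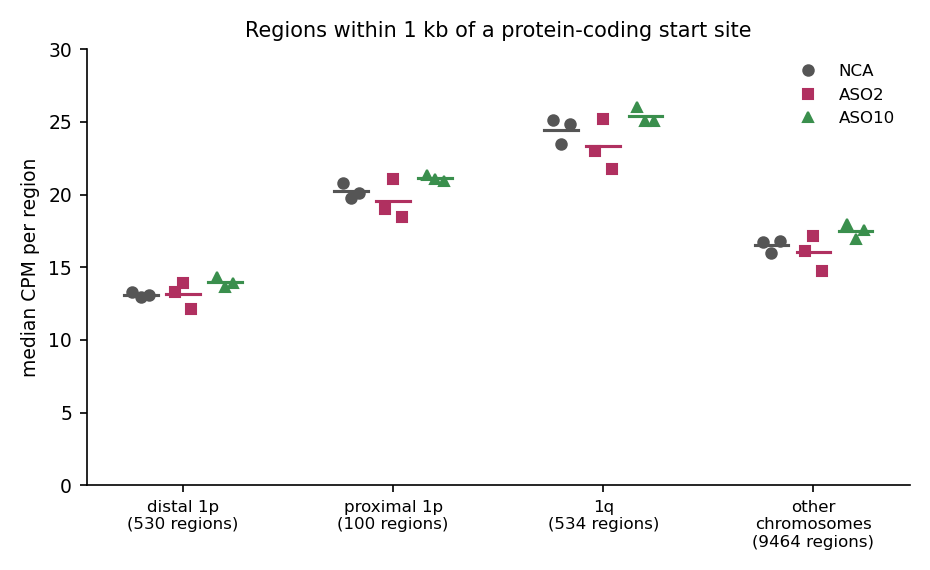
Median CPM of regions within 1 kb of a protein-coding start site in distal 1p (0 to 97 Mb), proximal 1p (97 to 121 Mb), 1q (144 to 249 Mb) and the other chromosomes, 1 point per library and a line at each group's mean of 3. In each group of libraries the points of distal 1p, from 12.1 to 14.3 CPM, lie below those of the other chromosomes, from 14.8 to 17.9 CPM, and those of 1q, from 21.7 to 26.0 CPM, lie above them.

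A single region held most of the counts of 1p. The region at chr1:629123-634897, inside the span of LOC102724250, covers a nuclear copy of mitochondrial DNA with the pseudogenes MTND1P23, MTND2P28, MTCO1P12, MTCO2P12, MTATP8P1, MTATP6P1 and MTCO3P12. It had the highest count of the table, with 8.20% ± 0.525 of all counts in NCA, 8.87% ± 0.223 in ASO2 and 7.56% ± 0.711 in ASO10 (SD, n = 3). Reads from mitochondrial DNA and from this near-identical copy cannot be told apart from these counts, so its level is uncertain. The next highest of 1p per kilobase were chr1:121184074-121185558, over an end of FAM72B and the start of SRGAP2C, with 698 counts per kilobase in NCA, and chr1:91387236-91387548 within HFM1, a meiotic DNA helicase, with 663. FAM72B and SRGAP2C belong to duplicated gene families, so reads could be shared with their copies. On 1q the highest per kilobase lay beside the centromere, at chr1:125178886-125180710 with 10932 and chr1:125182127-125183124 with 7633, next to an 18-Mb stretch without any region from 125183124 to 143184627, and at chr1:143249754-143250047 with 4341.

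The pseudogene region set the sign of the balance of counts between the arms. The log2 ratio of summed 1p to summed 1q counts was 0.590, 0.632 and 0.516 in the NCA libraries, 0.688, 0.742 and 0.663 in the ASO2 libraries and 0.433, 0.463 and 0.626 in the ASO10 libraries. All ASO2 libraries lay above all NCA libraries, while ASO10 and NCA overlapped. The difference to NCA was 0.12 for ASO2 (two-sided exact permutation p = 0.1, the smallest that 3 against 3 libraries can give) and -0.07 for ASO10 (exact permutation p = 0.3). Without the pseudogene region the ratio was negative in every library, and the differences to NCA were 0.05 for ASO2 and 0.04 for ASO10 (exact permutation p = 0.1 each), so that the direction of the ASO10 difference turned. In that version 1p held 3.67% ± 0.0101 of the counts in NCA, 3.75% ± 0.0328 in ASO2 and 3.76% ± 0.0341 in ASO10, and all 6 ASO libraries lay above the 3 NCA libraries. The corresponding shares of 1q were 8.43% ± 0.0846, 8.32% ± 0.180 and 8.39% ± 0.0969. ASO2 and ASO10 differed by 0.19 with the pseudogene region (exact permutation p = 0.1) and by 0.01 without it (exact permutation p = 0.8). With 3 libraries a group no such comparison can pass a threshold of 0.05.

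**Figure D3:**
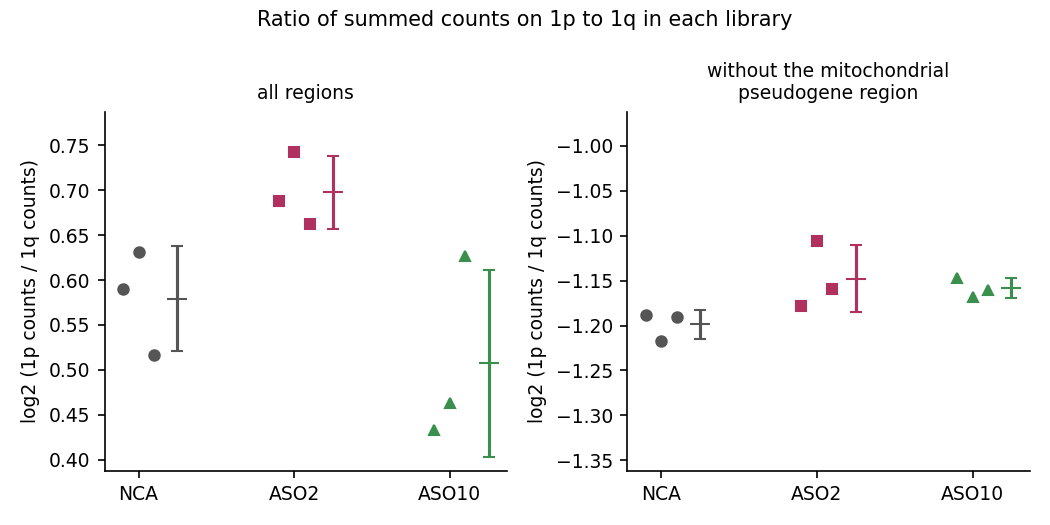
Log2 ratio of summed 1p to summed 1q counts in each library, with all regions (left) and without the region over mitochondrial pseudogenes (right), as points per library beside the group mean ± SD of 3 libraries. On the left the ASO10 libraries run from 0.433 to 0.626 around the NCA values, and on the right all ASO libraries lie above NCA.

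Changes under the ASOs were first followed over whole bins, summing all counts of a bin and testing with edgeR's quasi-likelihood test over the 314 bins of the genome (Benjamini-Hochberg adjusted p under 0.05; ± gives the SE of a log2 fold change here and below). Under ASO2, 14 of the 25 chromosome 1 bins changed, 6 higher and 8 lower (9 on 1p and 5 on 1q). Over all bins of the genome 60.5% were called, 28.7% higher and 31.8% lower. Scaled by total counts the chromosome 1 split was 7 higher and 4 lower. The bin from 190 to 200 Mb on 1q had 2924, 3027 and 2958 CPM in NCA and 3518, 3502 and 3560 in ASO2, a rise of 18.8% (log2 fold change 0.25 ± 0.02, adjusted p = 8.0e-08). The bin from 80 to 90 Mb on 1p had 1723, 1674 and 1752 CPM in NCA and 1965, 1992 and 1944 in ASO2, a rise of 14.6% (log2 fold change 0.20 ± 0.03, adjusted p = 2.5e-05), and the next bin, 90 to 100 Mb, rose by 13.8% (0.19 ± 0.02, adjusted p = 1.9e-06). In all 3 of these bins every ASO2 library lay above every NCA library.

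Among the bins that fell, 110 to 120 Mb on 1p changed by -0.11 ± 0.02 (log2 scale, SE; adjusted p = 0.00014) and 150 to 160 Mb on 1q by -0.09 ± 0.02 (adjusted p = 0.0059). The bins beside the centromere were lower still but spread more and were not called: 120 to 123 Mb had -0.14 (adjusted p = 0.11), 123 to 130 Mb -0.15 (adjusted p = 0.1) and 140 to 150 Mb -0.11 (adjusted p = 0.13). The bin from 150 to 160 Mb is the most gene-rich bin of the chromosome, with 250 protein-coding genes, whereas 190 to 200 Mb has 19. For the relation to gene number the ASO2 change was taken without the pseudogene region, unlike the values above. Over the 24 bins with annotated genes, this change and the number of genes per Mb had a Pearson r of -0.46 and a Spearman rho of -0.49. On the 13 bins of 1p they were -0.53 and -0.32, and on the 11 bins of 1q -0.47 and -0.66. These bins share the same libraries and their scaling, so no p is given.

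ASO10 changed 8 of the 25 chromosome 1 bins, 6 higher and 2 lower (6 on 1p and 2 on 1q). Of all bins 32.2% were called, 15.3% higher and 16.9% lower. The chromosome 1 split was 4 higher and 0 lower with total counts and 6 higher and 1 lower with RLE size factors. The largest rise was on 1p: the bin from 90 to 100 Mb had 2191, 2197 and 2205 CPM in the ASO10 libraries, 8.97% above NCA (0.12 ± 0.02, adjusted p = 0.00025). On 1q the bin from 190 to 200 Mb had 3130, 3149 and 3066 CPM, 4.90% above NCA (0.07 ± 0.02, adjusted p = 0.0054). The falls were at 110 to 120 Mb (-0.05 ± 0.02, adjusted p = 0.032) and 170 to 180 Mb (-0.07 ± 0.02, adjusted p = 0.0056). ASO2 was lower in the bin from 20 to 30 Mb (-0.05 ± 0.02, adjusted p = 0.03) where ASO10 was higher (0.09 ± 0.02, adjusted p = 0.0043), with 2978, 3098 and 2946 CPM in NCA, 2923, 2894 and 2887 in ASO2 and 3177, 3256 and 3145 in ASO10. It was the only chromosome 1 bin called in opposite directions, and among scalings its ASO2 call held with TMM factors alone: the value was -0.04 with RLE size factors (adjusted p = 0.086), -0.02 with total counts (adjusted p = 0.4), -0.04 with DESeq2 (adjusted p = 0.14) and -0.03 without the pseudogene region (adjusted p = 0.12), while the ASO10 call held under the same 3 scalings.

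ASO2 and ASO10 differed in 12 of the 25 bins, 6 in each direction (10 on 1p and 2 on 1q), with 8 higher and 4 lower under total counts. Of all bins 53.2% were called, 27.7% higher and 25.5% lower. The largest called difference was at 190 to 200 Mb, where ASO2 was higher by 13.2% (0.18 ± 0.02, adjusted p = 4.5e-06). At 150 to 160 Mb the difference was negative (-0.15 ± 0.02, adjusted p = 0.00024), and the first bin, which holds the pseudogene region, was not called (0.19 ± 0.09, adjusted p = 0.079). Without that region the difference turned to -0.15 (adjusted p = 2.3e-05). Against NCA the ASO2 change of this bin was 0.07 ± 0.09 (adjusted p = 0.48) with the region and -0.10 (adjusted p = 0.00034) without it. Both ASO comparisons use the same NCA libraries, so their values stand side by side here and no likeness between them is tested.

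**Figure D4:**
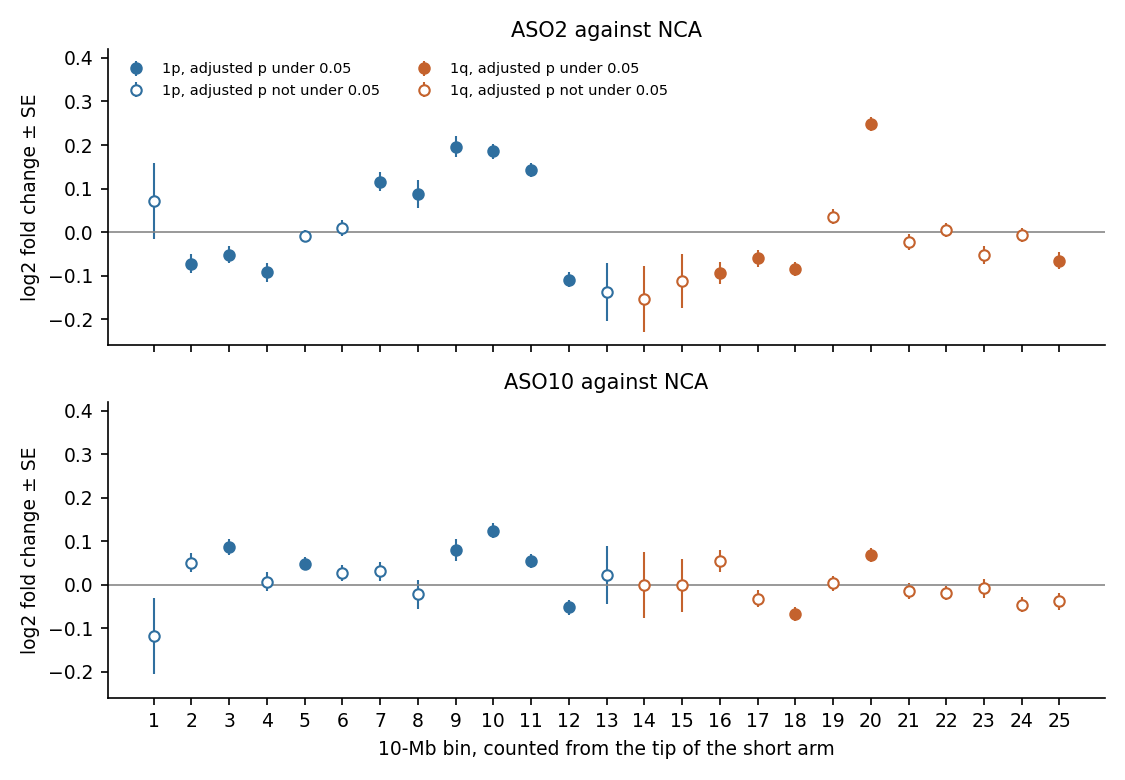
Log2 fold change ± SE of summed counts in each 10-Mb bin of chromosome 1, ASO2 against NCA above and ASO10 against NCA below; filled points passed an adjusted p of 0.05. Under ASO2 the filled points of bins 7 to 11 and 20 lie above 0 and those of bins 2 to 4, 12, 16 to 18 and 25 below it; the ASO10 values lie between -0.12 and 0.12.

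Single regions were tested over the 119417 rows of the table with enough counts, of which 5526 were on 1p and 9568 on 1q. ASO2 changed 300 regions of 1p (258 higher, 42 lower) and 424 of 1q (349 higher, 75 lower; edgeR adjusted p under 0.05). These are 5.43% and 4.43% of the tested regions of the arms, near the 5.6% of all tested regions (4.79% higher, 0.808% lower). ASO10 changed 55 regions of 1p (50 higher, 5 lower) and 76 of 1q (58 higher, 18 lower), 0.995% and 0.794%, against 1.09% of all tested regions (0.876% higher, 0.21% lower). ASO2 and ASO10 differed at 162 regions of 1p (122 higher in ASO2, 40 lower) and 274 of 1q (219 higher, 55 lower), 2.93% and 2.86%, against 3.23% of all (2.54% higher, 0.682% lower). Leaving out ASO10 replicate 1 left 21 ASO10 calls on 1p and 33 on 1q, leaving out ASO10 replicate 3 left 74 and 148 of the ASO2 to ASO10 differences, and leaving out ASO2 replicate 2 left 198 and 282 ASO2 calls. With a fitted curve on abundance in place of a single scaling factor, the ASO10 split turned to 33 higher and 45 lower on 1q and became 33 higher and 13 lower on 1p. The curve also moved the ASO2 split, to 236 higher and 77 lower on 1p and 338 higher and 125 lower on 1q. No chromosome 1 region was called against NCA in opposite directions by the 2 ASOs.

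Called rises under ASO2 were most frequent from 60 to 110 Mb and from 190 to 200 Mb, in the bins whose summed counts rose. From 60 to 110 Mb of 1p, 202 of 1808 tested regions rose (11.2%) and 13 fell, and from 180 to 200 Mb of 1q 136 of 1454 rose (9.35%) and 7 fell. In the latter run the share was 13.0% at 190 to 200 Mb and 6.13% at 180 to 190 Mb, a bin whose summed counts were not called (0.04, adjusted p = 0.093). From 0 to 60 Mb of 1p, 42 of 2578 rose (1.63%), and from 150 to 180 Mb of 1q 59 of 2465 rose (2.39%). These runs of bins were chosen after their values had been seen; they had 4.18, 2.65, 10.4 and 13.1 protein-coding genes per Mb. In the stretch of 110 to 150 Mb around the centromere, 19 of 2440 regions rose (0.779%) and 20 fell under ASO2. It had 3.475 protein-coding genes per Mb, fewer than 60 to 110 Mb, over a span that includes an 18-Mb stretch without regions. From 200 to 249 Mb, with 6.67 genes per Mb, 149 of 4349 regions rose (3.43%) and 39 fell. Rises under ASO10 were most frequent from 60 to 110 Mb, with 28 of 1808 (1.55%), and from 180 to 200 Mb, with 20 of 1454 (1.38%).

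**Figure D5:**
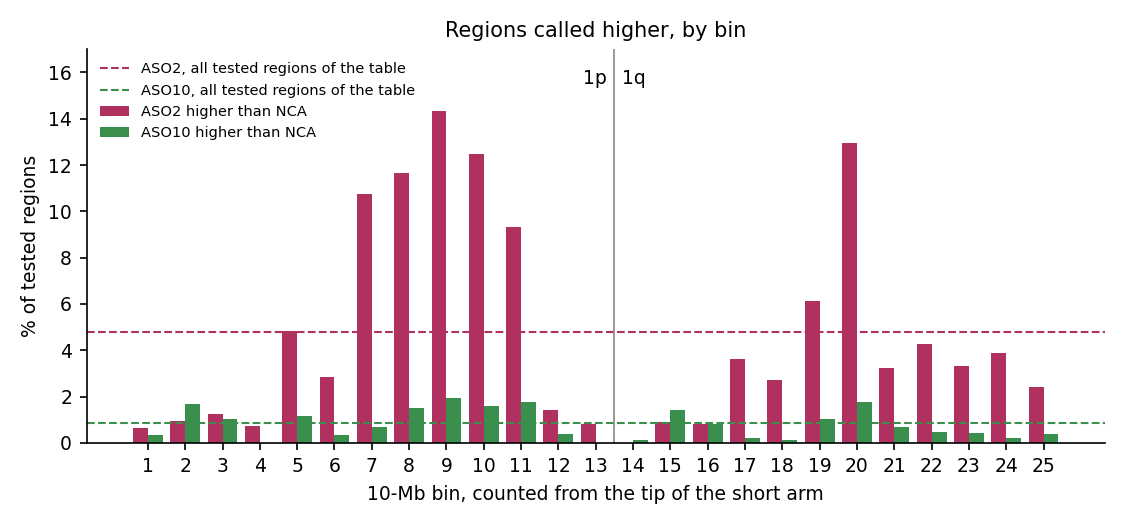
Share of tested regions called higher than NCA under ASO2 (red) and ASO10 (green) in each 10-Mb bin of chromosome 1, with dashed lines at the share over all tested regions, 4.79% and 0.876%. Bins 7 to 11 and 20 reach 9.30% to 14.3% under ASO2, and bins 1 to 4 stay at or below 1.23%.

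Regions at gene ends were a small part of the rises under ASO2. Of the 258 rises under ASO2 on 1p, 5 lay within 1 kb of a protein-coding gene end (1.94%), and of the 349 on 1q, 4 (1.15%). Of the ASO10 rises, 8 of 50 on 1p (16%) and 11 of 58 on 1q (19%) lay there, where 14.4% and 8.06% of the tested regions of the arms did. Among regions lower in ASO2 than in ASO10, 19 of 40 on 1p (47.5%) and 20 of 55 on 1q (36.4%) were at gene ends. Over all chromosomes, gene ends made up 1.64% of the ASO2 rises, 27.2% of the ASO10 rises and 51.3% of the regions lower in ASO2 than in ASO10. The median ASO10 change of all tested gene-end regions was 0.11 on 1p and 0.07 on 1q (log2 scale), and that of the other regions -0.01 and -0.02. With the fitted curve on abundance the gene-end medians were 0.05 on 1p and -0.01 on 1q, so the sign on 1q turned.

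The genes named next had many called regions. They were picked by their counts of calls, each region being given to the gene whose span it overlapped or else to the nearest gene within 100 kb. Over all tested regions 4.79% were higher and 0.808% lower under ASO2, and 0.876% higher and 0.21% lower under ASO10. By 10-Mb bin of chromosome 1 the share higher under ASO2 reached 14.3%, and no gene was tested against its bin. Under ASO2, DPYD, which encodes the enzyme that breaks down pyrimidines, had 11 of 60 tested regions higher and none lower. AGBL4, a cytosolic carboxypeptidase, had 9 of 51 higher, COL11A1, a fibrillar collagen chain, 6 of 23, OLFM3, a secreted olfactomedin protein of the nervous system, 6 of 30, and ADGRL2, a latrophilin adhesion receptor, 5 of 24. PLPPR4, a phosphatase-related membrane protein of neurons, had 4 of 19 higher and 1 lower. On 1q, C1orf21 had 8 of 41 higher, CHRM3, a muscarinic acetylcholine receptor, 7 of 70 with 1 lower, ESRRG, an orphan nuclear receptor, 7 of 74 with 1 lower, and KCNT2, a sodium-activated potassium channel, 6 of 40. Median log2 fold changes over the tested regions of these genes ran from 0.09 for CHRM3 to 0.48 for COL11A1. Under ASO10 the same count was 3 for AGBL4 and 2 for DPYD on 1p, none of them lower, and CHRM3 had 2 lower and none higher.

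The largest rises under ASO2 on 1p came from near-empty regions. A region within the span of AGBL4 at chr1:49641315-49641743 had 3, 0 and 3 counts in the NCA libraries, 20, 18 and 56 in the ASO2 libraries and 18, 5 and 17 in the ASO10 libraries. Summed counts per library total were 13.9 times those of NCA under ASO2 (95% counting interval 6.16 to 38.9) and 6.42 times under ASO10 (2.70 to 18.5); the interval covers counting error only. All ASO libraries lay above all NCA libraries, but the rule for naming regions required this, so the separation lends no support. Both changes were called (edgeR adjusted p = 5.8e-06 and 0.023), the ASO10 call being lost when any 1 of 6 libraries was left out. The region passed the filter on low counts only through the ASO libraries, as did the other AGBL4 region and the JAK1, KCNT2 and SERTAD4 regions named next; tested with no filter, the first gave adjusted p = 7.7e-06 under ASO2 and 0.031 under ASO10. A second AGBL4 region, at chr1:49883465-49883680, had 5 counts over the NCA libraries and 57 over the ASO2 libraries, a ratio of 10.1 (4.10 to 32.4; adjusted p = 0.0063), a call that was lost without ASO2 replicate 2. Within the span of JAK1, a cytokine receptor kinase, chr1:64879116-64879433 had 7, 3 and 1 counts in the NCA libraries, 24, 35 and 26 in the ASO2 libraries and 5, 9 and 9 in the ASO10 libraries, a log2 fold change under ASO2 of 2.76 ± 0.65 (SE; adjusted p = 0.0012). Under ASO10 the JAK1 region overlapped with NCA.

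On 1q, large ASO2 rises lay at 190 to 200 Mb. The region at chr1:194813276-194813767, 1412 kb from the nearest gene end, that of KCNT2, had 0.386, 1.01 and 0.681 CPM in the NCA libraries, 3.79, 5.69 and 5.87 in the ASO2 libraries and 0.938, 1.82 and 1.17 in the ASO10 libraries. ASO2 stood above both other groups (2.87 ± 0.49, adjusted p = 1.5e-06 against NCA, 1.96 ± 0.45, adjusted p = 0.0018 against ASO10). The region at chr1:192843444-192843619, 31.2 kb from RGS2, a regulator of G-protein signalling, and within the lncRNA genes LOC105371668 and LOC105371667, had 0, 5 and 3 counts in the NCA libraries, 11, 33 and 28 in the ASO2 libraries and 11, 8 and 7 in the ASO10 libraries. It was called under ASO2 (adjusted p = 0.0025, 0.0026 with no filter on low counts) and not without ASO2 replicate 2, and it too passed the filter only through the ASO libraries.

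Falls under ASO2 were rarer. On 1p, chr1:117346117-117346365, 21.1 kb from MAN1A2, a Golgi mannosidase, had 18, 15 and 20 counts in the NCA libraries, 0, 6 and 3 in the ASO2 libraries and 5, 10 and 13 in the ASO10 libraries (log2 fold change -2.69 ± 0.77, adjusted p = 0.013 under ASO2). A region in KCNC4, a voltage-gated potassium channel, at chr1:110273599-110273883 gave -2.08 ± 0.60 (SE; adjusted p = 0.013), and chr1:13298796-13299266, 4.27 kb from PRAMEF33, gave -2.04 ± 0.61 (SE; adjusted p = 0.02); PRAMEF33 belongs to a family of near-identical copies, so reads could be shared. On 1q, chr1:202265213-202265464 in LGR6, an R-spondin receptor, had 2.06, 2.77 and 2.61 CPM in the NCA libraries, 0.561, 0.537 and 0.459 in the ASO2 libraries and 2.58, 2.73 and 4.43 in the ASO10 libraries. Here only ASO2 was low (-2.24 ± 0.57, adjusted p = 0.0032 against NCA and -2.62 ± 0.56, adjusted p = 0.00048 against ASO10). A TDRD5 region at chr1:179609635-179610043 gave -2.29 ± 0.59 (SE; adjusted p = 0.0043), and chr1:198342140-198342301, 19.7 kb from NEK7, gave -2.31 ± 0.77 (SE; adjusted p = 0.05), a call that was lost in 11 of 14 alternatives. The MAN1A2, KCNC4 and PRAMEF33 calls were each lost in 4 of the fits with 1 library left out, and the TDRD5 call in 2. The MAN1A2, KCNC4 and PRAMEF33 regions also passed the filter on low counts only with the NCA libraries, where they were high.

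The 3 largest ASO10 falls of 1q are given with their ASO2 values, which use the same NCA libraries. In CHRM3, chr1:239891582-239892201 had 13.4, 10.5 and 9.08 CPM in the NCA libraries, 6.17, 4.94 and 6.33 in the ASO2 libraries and 4.46, 5.8 and 4.17 in the ASO10 libraries, a change of -1.18 ± 0.24 (SE; adjusted p = 0.00062) under ASO10 and -0.91 ± 0.23 (SE; adjusted p = 0.0031) under ASO2. In DUSP10, a phosphatase that switches off p38 and JNK kinases, chr1:221708049-221708476 had 10.7, 12 and 11.2 CPM in the NCA libraries, 5.61, 8.16 and 5.69 in the ASO2 libraries and 5.16, 4.89 and 4.95 in the ASO10 libraries. It changed by -1.17 ± 0.23 (SE; adjusted p = 0.00043) under ASO10 and by -0.80 ± 0.22 (SE; adjusted p = 0.011) under ASO2. In PPP1R12B, a myosin phosphatase subunit, and 1.01 kb from SYT2, chr1:202589235-202589582 changed by -1.30 ± 0.25 (SE; adjusted p = 0.00034) under ASO10 and by -0.59 ± 0.24 (SE; adjusted p = 0.13) under ASO2, the latter not called. On 1p the ASO10 falls were smaller: chr1:58971798-58972872, 188 kb from JUN, gave -1.04 ± 0.27 (SE; adjusted p = 0.023) and, under ASO2, 0.24 (adjusted p = 0.69), with a called difference of 1.28 between ASO2 and ASO10 (adjusted p = 0.00037). Further on, chr1:68256664-68257152, 24.1 kb from WLS, which carries Wnt proteins to the cell surface, gave -0.99 ± 0.28 (SE; adjusted p = 0.036), and chr1:10612418-10613651 in PEX14 gave -0.99 ± 0.28 (SE; adjusted p = 0.037). All 3 calls of 1p were lost in some fits with 1 library left out.

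The 5 regions with the largest ASO10 rises not yet named are given with their ASO2 values, which use the same NCA libraries. In PLPPR4, chr1:99274828-99275073 had 0.773, 0.756 and 1.48 CPM in the NCA libraries, 5.19, 2.68 and 3.76 in the ASO2 libraries and 1.88, 4.89 and 4.04 in the ASO10 libraries, a rise of 1.82 ± 0.45 (SE; adjusted p = 0.012) under ASO10 and 1.91 ± 0.45 (SE; adjusted p = 0.001) under ASO2. In CDC14A, a phosphatase of the cell cycle, chr1:100440103-100440457 rose by 1.46 ± 0.39 (SE; adjusted p = 0.026) and 1.95 ± 0.38 (SE; adjusted p = 3.3e-05). On 1q, chr1:167987134-167988314 in DCAF6 rose by 1.42 ± 0.40 (SE; adjusted p = 0.038) and 1.76 ± 0.39 (SE; adjusted p = 0.00042), and chr1:190303435-190304008 in BRINP3, a neural inhibitor of cell cycle entry, rose by 1.27 ± 0.35 (SE; adjusted p = 0.038) and 1.63 ± 0.34 (SE; adjusted p = 0.00019). The region chr1:210272672-210272851, 26.0 kb from SERTAD4, was called under ASO10 (2.67 ± 0.75, adjusted p = 0.039) and not under ASO2 (1.94 ± 0.76, adjusted p = 0.13), with a difference between them of -0.73 ± 0.63 (SE; adjusted p = 0.65). All 5 of these ASO10 calls were lost in at least 4 alternatives. None of the 5 regions passed the filter on low counts in the NCA libraries alone, so each entered the test only with its ASO libraries.

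Some regions separated the ASOs from each other. In CACHD1, a calcium channel subunit-like protein, chr1:64623600-64624426 had 6.57, 7.56 and 7.6 CPM in the NCA libraries, 22.6, 23.3 and 20.8 in the ASO2 libraries and 9.15, 7.28 and 5.86 in the ASO10 libraries, so that only ASO2 stood apart (ASO2 against ASO10, 1.57 ± 0.18, adjusted p = 8.5e-14). In NEGR1, a neuronal adhesion protein, chr1:71804211-71805142 gave 1.96 ± 0.26 (SE; adjusted p = 1.6e-10) in the same comparison. On 1q, chr1:235304212-235305721 in ARID4B, a chromatin protein, and chr1:235486121-235486968 in B3GALNT2, a glycosyltransferase, gave 1.30 ± 0.17 (SE; adjusted p = 7.6e-11) and 1.58 ± 0.21 (SE; adjusted p = 3.0e-10). At others ASO10 was the highest group. The region chr1:155983233-155984134, 3.62 kb from ARHGEF2, had 24.5, 21.2 and 23.7 CPM in the NCA libraries, 32.3, 32.8 and 26.3 in the ASO2 libraries and 48.3, 43.4 and 51.4 in the ASO10 libraries (ASO10 against NCA 1.04 ± 0.13, adjusted p = 1.9e-11, ASO2 against ASO10 -0.65 ± 0.12, adjusted p = 5.6e-05). The region chr1:1692401-1693673 over the start of SLC35E2B had 82.8, 64.8 and 80.3 CPM in the NCA libraries, 77.6, 86.6 and 74.2 in the ASO2 libraries and 112, 109 and 112 in the ASO10 libraries (ASO2 against ASO10, -0.48 ± 0.10, adjusted p = 0.00043). The other regions named for the largest differences in this direction were chr1:44730283-44731505, over the small nuclear RNA gene RNU5D-1 and 4.69 kb from ARMH1 (-0.92 ± 0.16, adjusted p = 1.0e-05), and chr1:143728669-143730196, over the small nuclear RNA gene RNVU1-18, with H3-7 the nearest protein-coding gene (-0.61 ± 0.11, adjusted p = 9.9e-06).

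Gene-end regions of known genes were mostly not called, like most tested regions. Over all tested regions 5.6% were called under ASO2, 1.09% under ASO10 and 3.23% between the ASOs (edgeR adjusted p under 0.05). At those shares, lists of this size would hold few calls. The counts of calls below are therefore not read as a result about these genes. Among 18 candidate suppressors of 1p, 13 had a tested region, of which none was called under ASO2 and UBE4B alone rose under ASO10. The UBE4B region at chr1:10032536-10033501 had 25.9, 26.1 and 26.9 CPM in the NCA libraries, 27.5, 32.6 and 27.6 in the ASO2 libraries and 34.7, 34.4 and 40.9 in the ASO10 libraries, above NCA in all ASO10 libraries (0.48 ± 0.13, adjusted p = 0.029). CAMTA1, a calmodulin-binding transcription activator, had a value of 0.36 (adjusted p = 0.096) under ASO10, KIF1B, a kinesin motor of neurons, 0.33 (0.33), ARID1A, a SWI/SNF subunit, 0.47 (0.15), and CHD5, a neuronal chromatin remodeller, -0.27 (0.84). TP73, RUNX3, PRDM16, MAD2L2 and TNFRSF25 had no region within 1 kb of an end. The region at MIR34A, the p53-induced microRNA gene, was weak, with 2.06, 0.63 and 2.04 CPM in NCA. The median log2 change of the list was 0.09 under ASO2 and 0.31 under ASO10, beside -0.05 and 0.08 over all tested gene-end regions, and fell to 0.22 under ASO10 with the curve on abundance. The UBE4B call was lost with that curve, and without any 1 of the NCA or ASO10 libraries.

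All 18 genes of the 1q growth and survival list had a tested region, none was called under ASO2 and UBE2T alone rose under ASO10. Of all tested regions, 5.6% were called under ASO2 and 1.09% under ASO10. The UBE2T region at chr1:202341512-202342542 had 22.8, 28 and 30.3 CPM in the NCA libraries, 29.6, 33.1 and 28.6 in the ASO2 libraries and 38.4, 36.6 and 35.9 in the ASO10 libraries (0.45 ± 0.13, adjusted p = 0.046). MCL1, the anti-apoptotic BCL2 relative, had 0.39 under ASO10 (adjusted p = 0.092), MDM4, an inhibitor of p53, 0.30 (0.45), and PARP1, a DNA repair enzyme, 0.29 (0.33). The call was lost in 11 of 17 alternatives. The list's median change was 0.11 under ASO2 and 0.26 under ASO10, 0.12 with the curve on abundance. In level, the list stood above the 1p suppressors in NCA, with a median of 197 counts per kilobase (155 at BTG2 to 343 at CENPF) against 107 (18.2 at MIR34A to 252 at CAMTA1). The arms as a whole differed in the same direction. In NCA, regions within 1 kb of any protein-coding start had a median of 19.6 CPM per kilobase on 1q and 12.1 on 1p. The region lay at the gene's own start for 16 of 18 genes of the 1q list and 9 of 13 of the 1p list. The neural genes had 88.6 counts per kilobase on 1p and 89.4 on 1q.

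Of 28 neural and neural crest genes, 27 had a tested region, and 1 was called: the NEGR1 region at chr1:72282308-72284649, with 28.3, 32.8 and 47 CPM in the NCA libraries, 22.5, 28.2 and 24.8 in the ASO2 libraries and 30.3, 33 and 36.2 in the ASO10 libraries, fell under ASO2 (-0.52 ± 0.13, adjusted p = 0.0024). The NCA libraries were spread widely there, and the call was lost without NCA replicate 3 or without ASO2 replicate 1. PROX1, a homeobox factor that drives neural precursors out of the cell cycle, had -0.56 under ASO2 (adjusted p = 0.071). Of 18 stress response genes, 16 had a tested region and none was called against NCA. For both lists, the shares called over all tested regions were 5.6% under ASO2 and 1.09% under ASO10. JUN, the AP-1 subunit, had 0.38 under ASO10 (adjusted p = 0.056) and SESN2, a sestrin of the integrated stress response, 0.48 (0.074). ATF6, a sensor of unfolded protein, had 0.34 (0.39), and ATF3 had no region within 1 kb of an end. DNAJB4 differed between the ASOs: its region at chr1:77978171-77979964, which also covers an end of FUBP1, had 29, 33.7 and 32.8 CPM in the NCA libraries, 23, 31.4 and 25.1 in the ASO2 libraries and 34.1, 35.8 and 38.8 in the ASO10 libraries (ASO2 against ASO10, -0.45 ± 0.13, adjusted p = 0.023). All 8 tested stress genes of 1p had a positive value under ASO10, as did 5 of 8 on 1q. The list's median was 0.24, and 0.14 with the curve on abundance. All tested gene-end regions had ASO10 medians of 0.11 on 1p and 0.07 on 1q, and 0.05 and -0.01 with that curve. The count of positive values is therefore not read as particular to stress genes. The DNAJB4 difference was lost in 6 of 17 alternatives.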

How the data were processed

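Open chromatin was measured in 9 libraries, 3 per group. The authors deposited whole-number counts per region with no further scaling; reads, peaks and the rule that made the regions were not used here, and whether reads or fragments were counted is not given in the sources used here. The submitters' processing notes list FastQC, Bowtie2 2.2.6, SAMtools, MACS2 2.1.2, DESeq2 1.42.0 and GRCh38 (hg38). Region positions are printed as deposited. Gene spans, start sites and promoter sequences are from RefSeq tables of GRCh38.p14, with no exon models, so a region is placed only within a gene's span or by its distance to a gene end; 81 regions on unlocalized chromosome 1 contigs were left out.

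Total counts were 7293565 to 10948569. Counts of all regions were fitted with edgeR 4.0.16 in R 4.3.3 (filterByExpr, TMM, quasi-likelihood test, all 3 groups in 1 fit, prior count of 2), and p-values were adjusted over 119417 regions or 314 bins; a call is an adjusted p under 0.05. The common coefficient of variation was 23.5% for regions and 3.31% for bins. On simulated counts for the ASO2 comparison, the region fit recovered 19.5% of 200 regions changed by 1 on the log2 scale. Of the 38 above 3 log2 CPM it recovered 78.9%, and 3 of its 42 calls were false. The bin fit recovered 93% of 200 changes of 0.2 on the log2 scale, summed over 10 draws, with 10 false calls among 196. Most called bins of chromosome 1 changed by less than 0.2, and each draw changed a smaller share of bins than the 60.5% called under ASO2. Recovery of bin changes like those in the data was therefore not measured. Replicates differed by more than counting noise: between libraries of a group, chi-square over its degrees of freedom was 2.74 to 3.24. Ratios of arms were compared by exact permutation over libraries. Intervals of count ratios are exact binomial at 95% and cover counting error only. Alternatives used DESeq2 1.42.0, other scalings, filters and bin sizes, and each library left out.

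The arms, lists and tests were chosen with earlier results of these data known. Named regions of each arm are, among called regions, the 3 largest rises and 3 largest falls per ASO against NCA with all ASO libraries on 1 side of all NCA libraries, the 2 best-supported differences each way (by adjusted p) when ASO2 is set against ASO10, the 3 highest per kilobase in NCA, and every called gene of the lists. Start-site levels of chromosome 8 were not analysed here. Some genes and regions that the rule names are not reported here.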

Additional observations from a re-analysis of the deposited data

Results flagged for a closer look

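ASO2 and ASO10 target the same RNA and share the NCA libraries, so the places where their effects differ were taken from the test of ASO2 against ASO10 itself. That test called 162 regions of 1p, 274 regions of 1q and 12 of the 25 bins of chromosome 1 (edgeR, adjusted over all tested regions or bins). The regions include the CACHD1, NEGR1, ARID4B and B3GALNT2 regions, where ASO2 was higher, and the RNU5D-1, SLC35E2B, ARHGEF2 and RNVU1-18 regions, where ASO10 was higher. The shares called on the arms, 2.93% and 2.86%, lay close to the 3.23% of all tested regions.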

How the results depend on the processing

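Of 787 recomputed values of 49 results, 4 reversed and 49 counts or ratios moved; causes were not tested except where fewer features or libraries entered. The ASO10 difference in the log2 ratio of 1p to 1q turned to 0.052 without the top 1% of regions, 0.025 as mean log2 CPM and 0.040 without the pseudogene region (chosen after seeing the data), and the ASO2 to ASO10 difference to -0.019 without the top 1%. With an absolute log2 fold change over 1, calls were 167 (ASO2), 12 (ASO10) and 68 (ASO2 against ASO10) on 1p, and 207, 18 and 89 on 1q. With at least 10 counts in every library ASO10 gave 86 on 1p and 128 on 1q, and DESeq2 gave 107 differences between the ASOs on 1p. Bins of 5 Mb gave 25, 16 and 26 calls, bins of 20 Mb 6, 3 and 4, and total counts 4 for ASO10. The 1p to 1q ratio of median counts per kilobase was 0.983 without 120 to 150 Mb, 2.27 for summed counts, 0.919 over 1 kb from gene ends, 0.988 for tested regions and 0.617 at start sites. Leaving out 1 library gave ratio differences of 0.09 to 0.14 (ASO2), -0.13 to -0.03 (ASO10) and 0.15 to 0.25 (ASO2 against ASO10), 198 to 295, 21 to 60 and 74 to 172 calls on 1p, 282 to 412, 33 to 86 and 148 to 282 on 1q, 9 to 15, 4 to 8 and 12 to 15 bins, and median ratios of 0.940 to 0.955. ASO2 bin calls were lowest without ASO2 replicate 3 and ASO10 bin calls without NCA replicate 1. Libraries with the same number deviated together with correlations of -0.036 to 0.013, so numbers do not pair them. With the number as a replicate block, calls were 283, 45 and 140 on 1p, 398, 61 and 245 on 1q, and 14, 6 and 12 bins. Of the recomputed values for single named regions, 108 lost their call, 472 kept their side of the threshold and 0 reversed.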
